A study of Homo sapiens with 8 samples.

Results

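The genes described here mark the epithelial and the mesenchymal state of a cell. They are 36 named genes of the 61228 in the count tables, taken by symbol from a list chosen with earlier results of these data known. On the epithelial side stand 22 genes, namely 10 of cell junctions and surface adhesion, 5 regulators of the epithelial state, 5 keratins, and RAB25 and ST14. The mesenchymal side holds 14 genes, of which 8 encode structural, matrix or surface proteins and 6 encode transcription factors. RNA was sequenced from lung cancer cells of the human lines H1975 and HCC44, whose genotype label is WT. Both are established lines of non-small cell lung cancer. Cells of each line were grown for 96 h with the solvent DMSO or with ACBI1, a compound that brings the VHL ubiquitin ligase to SMARCA2, SMARCA4 and PBRM1 and so has these subunits of SWI/SNF chromatin remodelling complexes destroyed. The dose in the labels is 1 mM, a concentration unusually high for such a compound, and its unit is uncertain. Each of the 4 groups (H1975 DMSO, H1975 ACBI1, HCC44 DMSO, HCC44 ACBI1) had 2 libraries. Of the 36 genes, 34 passed the filter on low counts and were tested. TWIST1 and TWIST2 did not, and had at most 2 counts in any library.

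Epithelial cells are held together by adherens junctions, built on E-cadherin, and by tight junctions and desmosomes, and they fill their cytoplasm with keratin filaments. In the epithelial to mesenchymal transition these are given up for vimentin filaments, a fibronectin-rich matrix and migration. The switch is run by transcription factors of the ZEB, SNAI and TWIST families, which bind E-box sequences and repress junction genes. It is opposed by GRHL2, OVOL1 and ELF3, by the splicing regulators ESRP1 and ESRP2, and by the miR-200 microRNAs, which pair with ZEB1 and ZEB2 transcripts. Carcinoma lines often hold markers of both states.

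Counts assigned to genes ranged from 62467286 to 70455517 per library, and the log2 CPM of replicates correlated at 0.992 or more. The labels number the replicates but do not say whether they came from separate cultures, so p-values measure the spread between these samples, which may be technical. Levels are CPM, the share of a library's counts scaled to a fixed total with TMM factors. Differences are log2 fold changes tested with edgeR (quasi-likelihood), and p-values were adjusted by Benjamini-Hochberg over the 21307 genes tested. A gene was called at an adjusted p under 0.05. In bulk RNA, fewer cells in a state and less RNA per cell cannot be told apart. Of 10 lung epithelial lineage markers, NKX2-1, NAPSA, FOXA1 and FOXA2 reached 1 CPM on average in both H1975 groups. In HCC44 FOXA1 and FOXA2 did, while NKX2-1 was at most 0.0318 CPM in any HCC44 library. FOXA1 went the other way, at 55.8 and 55.1 CPM in HCC44 DMSO against 3.88 and 2.91 CPM in H1975 DMSO. FOXA2 was at 3.75 and 4.77 against 18.8 and 16.2 CPM. Summed over the 10 markers, levels were 60.1 to 60.3 CPM in HCC44 DMSO and 45.6 to 52.3 CPM in H1975 DMSO. Summed endothelial markers (5 genes) stayed at or below 4.17 CPM and summed leukocyte markers (6 genes) at or below 3.87 CPM in each library.

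The miR-200 microRNAs tie the epithelial genes to the ZEB factors, and their sequences are shown because ZEB1 and ZEB2 were higher in HCC44, the line with the lower epithelial genes. These microRNAs were not measured here, and their part in the difference between the lines was not tested. Mature sequences are from RefSeq (GRCh38.p14), with the seed, bases 2 to 8, in capitals. The first 3 share 1 seed and the last 2 share another.
hsa-miR-200b-3p: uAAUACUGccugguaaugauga
hsa-miR-200c-3p: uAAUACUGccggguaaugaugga
hsa-miR-429: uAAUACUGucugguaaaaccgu
hsa-miR-141-3p: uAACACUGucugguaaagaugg
hsa-miR-200a-3p: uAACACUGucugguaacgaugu

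The 3′ UTR of ZEB1 (2549 bases, GENCODE 29) held 6 matches to the first seed and 3 to the second, 9 in all. That of ZEB2 (5370 bases) held 5 and 4, also 9 in all. Among 3′ UTRs of similar length, 47.1% of those compared with ZEB1 and 73.1% of those compared with ZEB2 had at least 1 such match. Each set includes the gene itself. As many as 9 matches were found in 1 of 2584 in the first set, which is ZEB1 itself. In the second set they were found in 2 of 1188, ZEB2 among them. A match is a description of the sequence and not a measured site. The windows below show 1 match to each seed in each gene, with the match in capitals and its first base counted from the start of the 3′ UTR.
ZEB1 position 369: attgttttatcttatCAGTATTa
ZEB1 position 782: caaaatcatcagaatCAGTGTTt
ZEB2 position 392: cgcactaccatacatCAGTATTt
ZEB2 position 208: tgcaaaaattttgtaCAGTGTTa

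The E-box read by ZEB and SNAI factors, CAGGTG or on the other strand CACCTG, was counted in the 250 bases before each start site in the RefSeq promoter table (GRCh38.p14). Of the 36 genes 20 were found in it, and 9 of these 20 (45%) held the motif: CLDN7, DSP, ELF3, JUP, OCLN, RAB25, S100A4, TJP1 and ZEB1. Among all 27305 genes with such a sequence, 20.6% held it. A gene was counted if the motif lay before any of its start sites, so genes with more start sites had more chances. The number of start sites was not matched. Of all 35116 windows, 17.5% held the motif. Upstream sequences free of annotated exons are given for CLDN3, which was lower in HCC44 than in H1975 and rose with ACBI1 in both lines, and for DSP and RAB25, which were also lower in HCC44. Of the other genes with the motif, CLDN7 and ELF3 were lower in HCC44, OCLN and ZEB1 were higher, and JUP, S100A4 and TJP1 were not called between the lines. Motifs are in capitals, and the CLDN3 window of 250 bases has none. DSP held 2 in its 250 bases, not all of which lie in the stretch shown. In a window of 300 bases, which adds 50 after the start site, 10 of the 20 genes (50%) held the motif. Among all genes 24.1% did. CLDN3 held 1 in that window.
CLDN3, chr7:73770271-73770520, minus strand: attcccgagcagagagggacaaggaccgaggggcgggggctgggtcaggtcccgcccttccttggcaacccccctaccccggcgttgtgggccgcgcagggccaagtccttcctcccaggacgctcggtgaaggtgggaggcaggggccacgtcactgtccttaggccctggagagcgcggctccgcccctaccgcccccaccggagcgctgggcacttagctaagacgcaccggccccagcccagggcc
DSP, chr6:7541421-7541574, plus strand: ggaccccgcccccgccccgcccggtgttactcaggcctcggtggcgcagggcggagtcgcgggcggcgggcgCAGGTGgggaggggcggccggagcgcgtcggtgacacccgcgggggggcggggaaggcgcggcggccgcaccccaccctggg
RAB25, chr1:156060910-156061159, plus strand: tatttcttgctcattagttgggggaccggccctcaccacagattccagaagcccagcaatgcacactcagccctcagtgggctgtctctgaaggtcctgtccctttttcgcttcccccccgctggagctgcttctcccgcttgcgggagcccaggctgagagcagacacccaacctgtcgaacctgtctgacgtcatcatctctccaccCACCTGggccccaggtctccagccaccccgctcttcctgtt

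The first comparison asked how the lines differ without the compound. HCC44 had far less RNA of most epithelial genes than H1975: 18 of the 22 were lower and 2, CLDN1 and OCLN, were higher, with a median log2 difference of -2.22 against -0.08 over all genes tested. Across all genes 36.4% were called lower and 31.6% higher. The mesenchymal genes did not move as 1 group, since 4 were higher in HCC44 (ZEB1, ZEB2, THY1 and TAGLN) and 6 were lower (VIM, FN1, SPARC, ACTA2, SNAI1 and SNAI2), with a median of -0.56. Of these 30 calls 29 were kept under every alternative fit and with each library left out. That of RAB25 was kept wherever it was tested, but the filter of 1 CPM in 2 libraries removed this gene.

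Among junction genes, CDH1 (chr16:68737225-68835548 in GENCODE 29, GRCh38), which encodes E-cadherin, was at 250.4 and 198 CPM in the H1975 DMSO libraries and at 4.1 and 4.37 CPM in those of HCC44. Both HCC44 libraries lay far below both of H1975. The difference was 52.8-fold, a log2 fold change of -5.72 ± 0.41 (SE, adjusted p = 1.07e-05). EPCAM, a surface adhesion glycoprotein of epithelia, was at 184 and 158 CPM in H1975 and at 10.8 and 10.4 CPM in HCC44, a log2 difference of -4.01 ± 0.13. The claudins, the sealing strands of tight junctions, split: CLDN3 and CLDN4 were lower in HCC44 by 18.1-fold and 15.4-fold, while CLDN1 was higher. CLDN3 was at 12 and 11.5 CPM in H1975 and at 0.763 and 0.533 CPM in HCC44, and CLDN4 at 371 and 298 and at 23.4 and 19.9 CPM. CLDN1 was at 29.7 and 25.1 CPM in H1975 and at 328 and 374 CPM in HCC44, 12.8-fold higher. CLDN7 (-1.46 ± 0.25) and desmoplakin, DSP (-2.51 ± 0.16), were lower in HCC44, and occludin, OCLN, was 2.05-fold higher. The scaffold gene TJP1 and plakoglobin, JUP, had libraries that overlapped between the lines and were not called (adjusted p = 0.938 and 0.754).

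All 5 regulators of the epithelial state were lower in HCC44. ESRP1, which drives epithelial splicing, was at 136 and 113 CPM in H1975 and at 0.779 and 0.47 CPM in HCC44, and the epithelial transcription factor GRHL2 was at 49.9 and 42.3 and at 0.382 and 0.172 CPM. Both were close to absent in HCC44. Their log2 differences were -7.64 ± 0.26 (SE, adjusted p = 7.84e-09) and -7.37 ± 0.28 (SE, adjusted p = 4.14e-09). The zinc finger factor OVOL1 had 302 and 224 counts in the H1975 DMSO libraries and 1 and 4 in those of HCC44, 526 against 5 in all, a ratio of 101 with an exact 95% interval of 43 to 312.3 that covers counting error only. ESRP2 and ELF3 were lower by 2.91-fold and 3.24-fold. Every one of the 5 keratins was also lower in HCC44, by 6.93-fold for KRT7, 3.78-fold for KRT8, 2.7-fold for KRT18, 8.19-fold for KRT19 and 2.02-fold for KRT80. KRT19 was at 351 and 306 CPM in H1975 and at 40.4 and 39.8 CPM in HCC44. Keratins outside these 5 mostly went the other way. Of 6 further keratins tested, 4 were higher in HCC44 DMSO, 1 was lower and 1 was not called. Their median log2 difference was 1.357. RAB25, a small GTPase of epithelial membrane recycling, had 44 and 61 counts in H1975 and 2 and 4 in HCC44, 105 against 6 in all, a ratio of 16.8 (7.465 to 46.82). The membrane serine protease ST14 was 3.01-fold lower.

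Of the structural mesenchymal genes, fibronectin, FN1 (chr2:215360440-215436172), was at 987 and 1389 CPM in H1975 and at 30 and 21.6 CPM in HCC44. It was thus high in the line with the higher epithelial genes, by 46-fold, a log2 fold change of -5.53 ± 0.22 (SE, adjusted p = 6.17e-08). VIM, the vimentin gene, was at 1224 and 1415 CPM in H1975 and at 417 and 527 CPM in HCC44, and the matrix protein gene SPARC at 172 and 193 and 15.3 and 18.5 CPM. Both were lower in HCC44, by 2.8-fold and 10.8-fold. THY1, a surface glycoprotein of fibroblasts, had 0 counts in both H1975 DMSO libraries and 538 and 634 counts in those of HCC44, at least 407-fold higher against a floor of 3 counts over the group. Smooth muscle actin, ACTA2, was 2.16-fold lower in HCC44, at 2.43 and 2.41 against 5.51 and 4.97 CPM, and transgelin, TAGLN, 1.66-fold higher. N-cadherin, CDH2, was close to absent in both lines, with 17 and 13 counts in the H1975 DMSO libraries and 10 and 12 in those of HCC44, and was not called. S100A4, a calcium-binding protein, had overlapping libraries near 1 CPM and was not called. Per kilobase of exon, the level of CDH1 in H1975 DMSO was 36.3 ± 6.04 CPM per kb (SD, n = 2) and that of CDH2 0.0461 ± 0.0103, against 0.686 ± 0.0311 and 0.0351 ± 0.00416 in HCC44 DMSO. The level of CDH1 thus lay above that of CDH2 in both lines.

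The transcription factors divided by family. ZEB2 (chr2:144364364-144524583) was at 1.01 and 0.947 CPM in H1975 and at 47.3 and 47.9 CPM in HCC44, 48.6-fold, a log2 fold change of 5.60 ± 0.14 (SE, adjusted p = 2.37e-10) higher. ZEB1 (chr10:31318495-31529814), at 14 and 18.8 and 36 and 38.6 CPM, was 2.28-fold higher in HCC44. SNAI1 was at 71.1 and 68.8 CPM in H1975 and 49.5 and 35 CPM in HCC44, and SNAI2 at 39.1 and 44.9 and 11.1 and 9 CPM. In contrast to the ZEB genes, both were lower in HCC44, by 1.66-fold and 4.18-fold. MIR200CHG, the host transcript of miR-200c and miR-141, was chosen for mention after its values were seen. It had 58 counts in H1975 DMSO and 0 in HCC44 DMSO, at least 18.56-fold lower against the same floor. Of 7 fibroblast markers, summed levels were 48.9 to 72.1 CPM in H1975 DMSO and 74.4 to 92.7 CPM in HCC44 DMSO, mostly from COL1A1. DCN was at 0 in all 8 libraries, and PDGFRA and COL3A1 were at most 0.0636 and 0.0629 CPM.

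**Figure D1:**
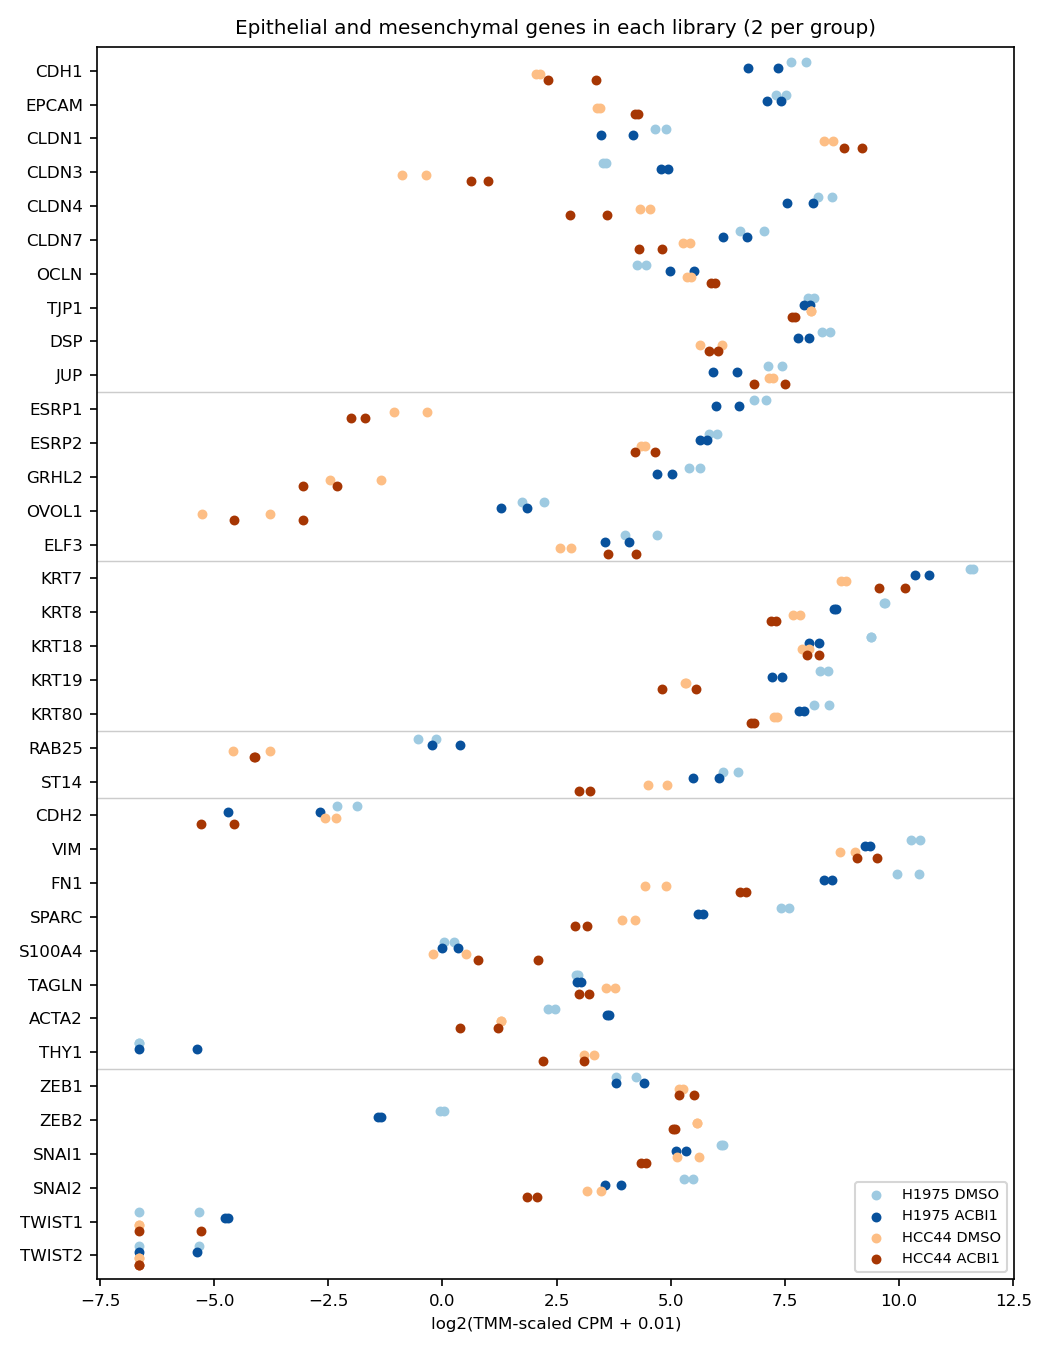
Level of each of the 36 genes in each library, as log2 of TMM-scaled CPM plus 0.01 on the horizontal axis, with the genes in rows and a point per library (2 per group). Grey lines separate the roles, and the epithelial regulators ESRP1, GRHL2 and OVOL1 show the wide gap between H1975 (blue) and HCC44 (orange), with ZEB2 reversed.

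**Figure D2:**
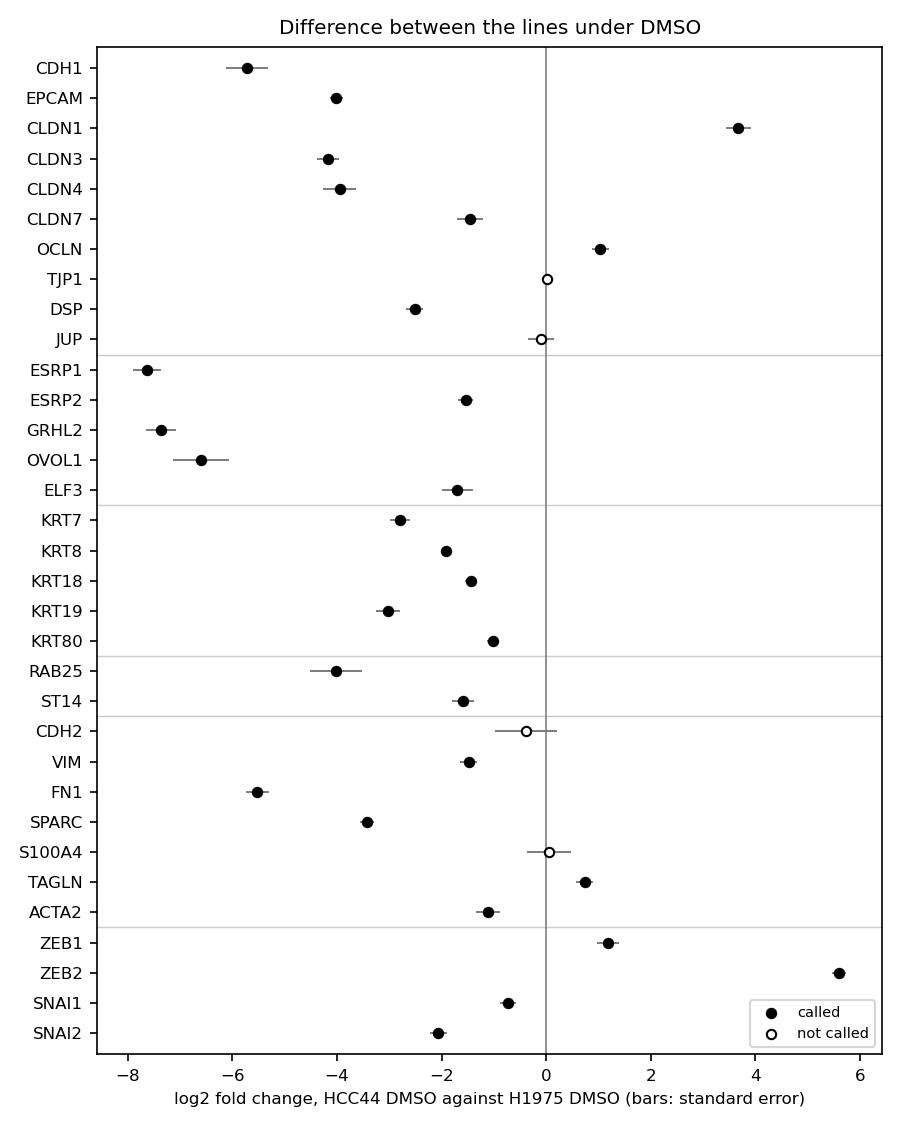
Log2 fold change of HCC44 DMSO against H1975 DMSO for the tested genes except THY1, which had no counts in H1975 DMSO, with bars for the standard error and filled points for called genes. Most epithelial genes lie left of 0, CLDN1, OCLN, TAGLN, ZEB1 and ZEB2 lie right of it among the called genes, and FN1 and SPARC are far to the left.

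The second comparison asked what ACBI1 changed in H1975. On both sides of the list more genes fell than rose. Of 22 epithelial genes 10 fell, 2 rose and 10 were not called (median log2 fold change -0.51), and of 12 tested mesenchymal genes 6 fell, 1 rose and 5 were not called, with a median of -0.98. Over all genes the median was -0.01, 16.7% were called lower and 14.6% higher. The falls that were kept under every alternative and with each library left out were those of KRT7, KRT8, KRT18, VIM, FN1, SPARC, ZEB2, SNAI1 and SNAI2, and the rises so kept were those of CLDN3, OCLN and ACTA2. These comparisons use the same DMSO libraries as the comparison of the lines.

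All 5 keratins fell in H1975. KRT7, a keratin of simple epithelia, was at 3124 and 2985 CPM with DMSO and at 1604 and 1296 CPM with ACBI1. Both ACBI1 libraries lay well under both DMSO libraries, with a log2 fold change of -1.07 ± 0.17 (SE, adjusted p = 0.00185). KRT8 and KRT18, which pair in the same filament, went from 814 and 826 to 394 and 384 CPM and from 671 and 664 to 304 and 262 CPM. The libraries of neither gene overlapped between the groups, with log2 fold changes of -1.07 ± 0.09 (SE, adjusted p = 2.24e-05) and -1.24 ± 0.11 (SE, adjusted p = 4.27e-05). The exons of KRT8 and KRT18 share 525 annotated bases on opposite strands of chr12, and without a stated strand setting reads from that stretch cannot be told apart. KRT19 went from 351 and 306 to 173 and 148 CPM (-1.03 ± 0.21 SE, adjusted p = 0.00816) and KRT80 also fell (-0.46 ± 0.11 SE, adjusted p = 0.00926).

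The junction genes moved in both directions. CLDN3 rose from 12 and 11.5 to 27.6 and 30.5 CPM, with a log2 fold change of 1.31 ± 0.17 (SE, adjusted p = 0.000299). OCLN rose by 0.90 ± 0.16 (SE, adjusted p = 0.00166). In the other direction, CLDN1 went from 29.7 and 25.1 to 17.9 and 11.1 CPM (-0.91 ± 0.23 SE, adjusted p = 0.0183) and JUP from 173 and 141 to 88 and 60.3 CPM (-1.08 ± 0.25 SE, adjusted p = 0.0145). DSP fell by 0.50 on the log2 scale (adjusted p = 0.0327). CDH1 was at 250.4 and 198 CPM with DMSO and 162 and 104 CPM with ACBI1, so the groups did not overlap, yet it was not called, at -0.75 ± 0.32 (SE, adjusted p = 0.125). EPCAM, CLDN4, CLDN7 and TJP1 were not called. With ACBI1 EPCAM was at 171 and 137 CPM and CLDN4 at 279 and 188 CPM. Of the epithelial regulators, ESRP1 (-0.69 ± 0.18 SE, adjusted p = 0.0159) and GRHL2 (-0.65 ± 0.19 SE, adjusted p = 0.022) fell, and ESRP2, OVOL1 and ELF3 were not called, nor were RAB25 and ST14. With ACBI1 ESRP1 was at 90.4 and 63.7 CPM and GRHL2 at 32.7 and 25.8 CPM, both under the DMSO libraries. OVOL1 had 271 and 170 counts and RAB25 97 and 60 counts with ACBI1. ELF3 was at 26.1 and 16 CPM with DMSO and 17.1 and 11.9 CPM with ACBI1, which overlap, and ST14 at 88.6 and 70.3 and 67 and 44.9 CPM, which do not.

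Several of these epithelial calls were lost when a single library was left out. Such a fit leaves 1 library in a group, so a call can be lost while the log2 fold change is as large. This was so for CLDN1, DSP and JUP without H1975 DMSO replicate 2. Without H1975 DMSO replicate 1, those of CLDN1 (-0.79, adjusted p = 0.13), DSP (-0.41, 0.157), JUP (-0.93, 0.123), ESRP1 (-0.56, 0.0929), GRHL2 (-0.53, 0.131) and KRT19 (-0.94, 0.0724) were lost, which left 4 epithelial falls. Without H1975 DMSO replicate 2, CLDN1 (-0.98, 0.0678), DSP (-0.54, 0.0628), JUP (-1.17, 0.0628) and KRT80 (-0.23, 0.173) were lost. Without H1975 ACBI1 replicate 1, KRT80 was lost (-0.37, 0.101), while ST14 (-0.79, 0.0132) and CDH2 (-2.89, 0.0475) were gained. Without H1975 ACBI1 replicate 2, DSP (-0.36, 0.199), JUP (-0.81, 0.0718), ESRP1 (-0.44, 0.0972), GRHL2 (-0.47, 0.171) and KRT19 (-0.90, 0.0679) were lost. CDH1 was called as lower when H1975 was fitted alone (-0.75, 0.0355) and without HCC44 ACBI1 replicate 1 (-0.75, 0.0348) or replicate 2 (-0.75, 0.0346). Without the filter on low counts ELF3 (-0.55, 0.00525) and ST14 (-0.51, 0.000268) were called as lower, and ST14 was also in the fit blocked by replicate number (-0.52, 0.00327). The values in parentheses are log2 fold changes and edgeR's adjusted p-values. With library totals in place of TMM factors, which raised the median gene by 0.203 on the log2 scale in H1975, DSP, ESRP1, GRHL2 and KRT80 were not called and 6 epithelial genes fell.

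The matrix and filament genes that were high in H1975 were lower with ACBI1. FN1 was at 987 and 1389 CPM with DMSO and at 326 and 372 CPM with ACBI1, a fall of 3.4-fold (-1.77 ± 0.19 SE, adjusted p = 0.000267). SPARC went from 172 and 193 to 48.4 and 52.1 CPM (-1.86 ± 0.12 SE, adjusted p = 7.53e-06), and VIM from 1224 and 1415 to 609 and 654 CPM (-1.06 ± 0.16 SE, adjusted p = 0.00087). In all 3 the groups were well separated. ACTA2 moved the other way, from 5.51 and 4.97 to 12.6 and 12.2 CPM, and rose by 1.24 ± 0.23 (SE, adjusted p = 0.00234). TAGLN, a smooth muscle gene whose product binds actin, stayed near 8 CPM with overlapping libraries and was not called. S100A4, at 1.01 and 1.18 and 0.984 and 1.26 CPM, and CDH2, with 11 and 2 counts with ACBI1, were not called either. THY1 had 1 count over the 4 H1975 libraries. Summed fibroblast markers were 25.6 to 30.5 CPM with ACBI1 against 48.9 to 72.1 CPM with DMSO, and COL1A1 alone was at 28.9 and 22.9 against 68.9 and 44.4 CPM. COL1A2 was likewise lower with ACBI1, at 0.2 and 0.523 against 2.3 and 3.83 CPM, while PDGFRB was higher, at 1.34 and 1.98 against 0.699 and 0.577 CPM. LUM was at most 0.186 CPM in any H1975 library and DCN at 0. The part of such cells in the result was not tested.

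Among the transcription factors, SNAI2 went from 39.1 and 44.9 CPM with DMSO to 11.8 and 15.1 CPM with ACBI1 (-1.64 ± 0.16 SE, adjusted p = 7.50e-05). SNAI1 went from 71.1 and 68.8 to 34.4 and 40.5 CPM (-0.90 ± 0.15 SE, adjusted p = 0.00145). ZEB2, already low, went from 1.01 and 0.947 to 0.386 and 0.368 CPM (-1.37 ± 0.18 SE, adjusted p = 0.000323). For these 3 genes no ACBI1 library reached the level of a DMSO library. ZEB1 had overlapping libraries, at 14 and 18.8 and 13.9 and 21.3 CPM, and was not called (adjusted p = 0.761).

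The third comparison asked what ACBI1 changed in HCC44. There the epithelial genes moved both ways, 5 up (EPCAM, CLDN3, OCLN, ELF3 and KRT7) and 7 down (CLDN4, CLDN7, TJP1, ESRP1, KRT8, KRT80 and ST14), and their median log2 fold change was 0.03. Of 12 tested mesenchymal genes 2 rose (FN1 and S100A4) and 6 fell (CDH2, TAGLN, SPARC, ZEB2, SNAI1 and SNAI2), with a median of -0.49. Over all genes the median was 0.01, with 17.5% called higher and 17.4% lower. The rises of EPCAM, CLDN3, KRT7 and FN1 and the falls of TJP1, KRT8, KRT80, ST14, SPARC, ZEB2, SNAI1 and SNAI2 were kept under every alternative and with each library left out.

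EPCAM was at 10.8 and 10.4 CPM with DMSO and at 18.5 and 19.4 CPM with ACBI1, a rise of 0.84 ± 0.12 (SE, adjusted p = 0.00046). CLDN3 rose from 0.763 and 0.533 to 1.54 and 1.98 CPM (1.44 ± 0.22 SE, adjusted p = 0.000612), a level still under that of H1975 DMSO. OCLN rose by 0.53 ± 0.15 (SE, adjusted p = 0.0197). That call was lost without any 1 of the 4 HCC44 libraries, with log2 fold changes of 0.48 to 0.59 and adjusted p-values of 0.0531 to 0.121. CLDN4 went from 23.4 and 19.9 to 6.91 and 12.2 CPM (-1.18 ± 0.30 SE, adjusted p = 0.0195). Its call was lost without HCC44 DMSO replicate 1 (-1.06, 0.06), HCC44 ACBI1 replicate 1 (-0.83, 0.0533), H1975 DMSO replicate 1 (-1.18, 0.0674) or H1975 DMSO replicate 2 (-1.18, 0.0658). CLDN7 fell by 0.77 on the log2 scale (adjusted p = 0.0463). It was not called without HCC44 DMSO replicate 1 (-0.84, 0.0821), HCC44 DMSO replicate 2 (-0.69, 0.142) or HCC44 ACBI1 replicate 1 (-0.54, 0.212), nor with the replicate number as a block (-0.76, 0.0836). TJP1 fell by 0.38 (adjusted p = 0.00644). CDH1 was at 4.1 and 4.37 CPM with DMSO and 4.93 and 10.3 CPM with ACBI1 and was not called (0.85 ± 0.37 SE, adjusted p = 0.126), although it was without HCC44 ACBI1 replicate 1 (1.29, 0.0164). CLDN1, at 328 and 374 and 444 and 581 CPM, was not called (0.55 ± 0.22 SE, adjusted p = 0.0884). It was called as higher by DESeq2 (0.54, 0.0194), without the filter (0.55, 0.00186), with HCC44 fitted alone (0.55, 0.0152) and without either H1975 ACBI1 library (0.54, 0.0065 and 0.55, 0.00642). DSP and JUP had overlapping libraries, those of JUP at 151 and 143 and 113 and 181 CPM.

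ELF3, an epithelial ETS factor, went from 7.07 and 5.91 CPM with DMSO to 12.2 and 18.8 CPM with ACBI1 (1.26 ± 0.30 SE, adjusted p = 0.01). It was not called without HCC44 DMSO replicate 2 (1.14, 0.0677) or HCC44 ACBI1 replicate 2 (0.92, 0.0669). ESRP1 remained under 1 CPM in each HCC44 library, with 49 and 30 counts for DMSO and 15 and 19 for ACBI1, and fell, with a log2 fold change of -1.20 ± 0.40 (SE, adjusted p = 0.0421). Without HCC44 DMSO replicate 1 (-0.80, 0.245), HCC44 ACBI1 replicate 1 (-1.05, 0.212) or HCC44 ACBI1 replicate 2 (-1.37, 0.143) it was not called. GRHL2, OVOL1 and ESRP2 were not called, nor was RAB25. With ACBI1 GRHL2 had 12 and 7 counts, OVOL1 2 and 7 and RAB25 3 and 3, so all 3 remained close to absent. Among the keratins KRT7 rose, from 423 and 459 to 751 and 1122 CPM (1.09 ± 0.17 SE, adjusted p = 0.00129). KRT8 went from 228 and 205 to 146 and 157 CPM (-0.52 ± 0.09 SE, adjusted p = 0.00103), and KRT80 also fell (-0.51 ± 0.11 SE, adjusted p = 0.00419). KRT18, the partner of KRT8, had overlapping libraries at 234 and 261 and 252 and 302 CPM and was not called. KRT19, at 40.4 and 39.8 and 27.9 and 47.2 CPM, was not called with all libraries, and was called as lower without HCC44 ACBI1 replicate 2 (-0.52, 0.0135). ST14 went from 30.2 and 22.6 to 9.36 and 7.95 CPM (-1.61 ± 0.22 SE, adjusted p = 0.000633), the largest called fold change among the epithelial genes of HCC44.

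FN1 was low in HCC44 DMSO, at 30 and 21.6 CPM, and higher with ACBI1, at 91.1 and 101 CPM. The groups were well apart, with a rise of 3.72-fold (1.90 ± 0.19 SE, adjusted p = 0.000134). SPARC went from 15.3 and 18.5 to 8.99 and 7.47 CPM (-1.04 ± 0.13 SE, adjusted p = 0.000156). TAGLN went from 13.7 and 12 to 9.22 and 7.88 CPM (-0.58 ± 0.15 SE, adjusted p = 0.0125), and it was not called without HCC44 DMSO replicate 1 (-0.49, 0.0958) or HCC44 ACBI1 replicate 2 (-0.48, 0.0755). S100A4 was at 0.858 and 1.43 CPM with DMSO and at 1.71 and 4.23 CPM with ACBI1 (1.38 ± 0.41 SE, adjusted p = 0.0239). The rise leaned on the higher ACBI1 library, since without HCC44 ACBI1 replicate 2 it was 0.58 (adjusted p = 0.289), and without HCC44 DMSO replicate 1 it was 1.05 (0.165). CDH2 had 10 and 12 counts in the DMSO libraries and 2 and 1 in those with ACBI1, which is 7.295 times as many with DMSO (exact 95% interval 2.192 to 38.07). Its call was lost without any 1 of the 4 HCC44 libraries (adjusted p = 0.0775 to 0.152), and the gene was not tested when HCC44 was fitted alone or under the 1 CPM filter. VIM was at 417 and 527 and 542 and 732 CPM, which missed the threshold (0.43 ± 0.15 SE, adjusted p = 0.0529) and passed it in several other fits. It was called as higher by DESeq2 (0.43, 0.0347), with library totals (0.52, 0.0188), without the filter (0.44, 6.87e-05), under the 1 CPM filter (0.45, 0.042), in the fit blocked by replicate number (0.43, 0.00413) and without HCC44 DMSO replicate 2 (0.61, 0.0368) or HCC44 ACBI1 replicate 1 (0.63, 0.00862). ACTA2 (-0.90, 0.0162) and THY1 (-1.003, 0.0292) were called as lower without HCC44 ACBI1 replicate 2, and neither was with all libraries. With ACBI1 ACTA2 was at 1.3 and 2.3 CPM and THY1 had 288 and 544 counts. Summed fibroblast markers were 206.7 to 411 CPM with ACBI1 against 74.4 to 92.7 CPM with DMSO, and COL1A1 alone was at 200.4 and 403.5 against 89.5 and 71.1 CPM. LUM was also higher with ACBI1, at 3.42 and 4.56 against 0.779 and 0.956 CPM, as was PDGFRB, at 2.85 and 2.96 against 2.23 and 2.18 CPM. DCN was at 0, and COL1A2 was at 0 with ACBI1 and at most 0.111 CPM with DMSO. The part of fibroblast-like cells in the result was not tested.

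SNAI1 went from 49.5 and 35 to 22 and 20.3 CPM in HCC44 (-0.997 ± 0.15 SE, adjusted p = 0.000602) and SNAI2 from 11.1 and 9 to 4.19 and 3.6 CPM (-1.37 ± 0.17 SE, adjusted p = 0.000181). ZEB2 went from 47.3 and 47.9 to 33.2 and 34.3 CPM (-0.50 ± 0.11 SE, adjusted p = 0.00471) and so remained far above its level in H1975. In these 3 genes the groups did not overlap. Other settings ended some calls in HCC44: library totals those of CLDN7 (-0.68, 0.0724) and ESRP1 (-1.11, 0.0662), the filter of 1 CPM in 2 libraries that of ESRP1 (-1.19, 0.0541), no filter that of CLDN4 (-1.18, 0.135), DESeq2 that of CDH2 (-2.87, 0.0807) and a fit of HCC44 alone that of S100A4 (1.38, 0.0555). ZEB1, at 36 and 38.6 and 36.5 and 45.4 CPM, was not called (adjusted p = 0.665).

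**Figure D3:**
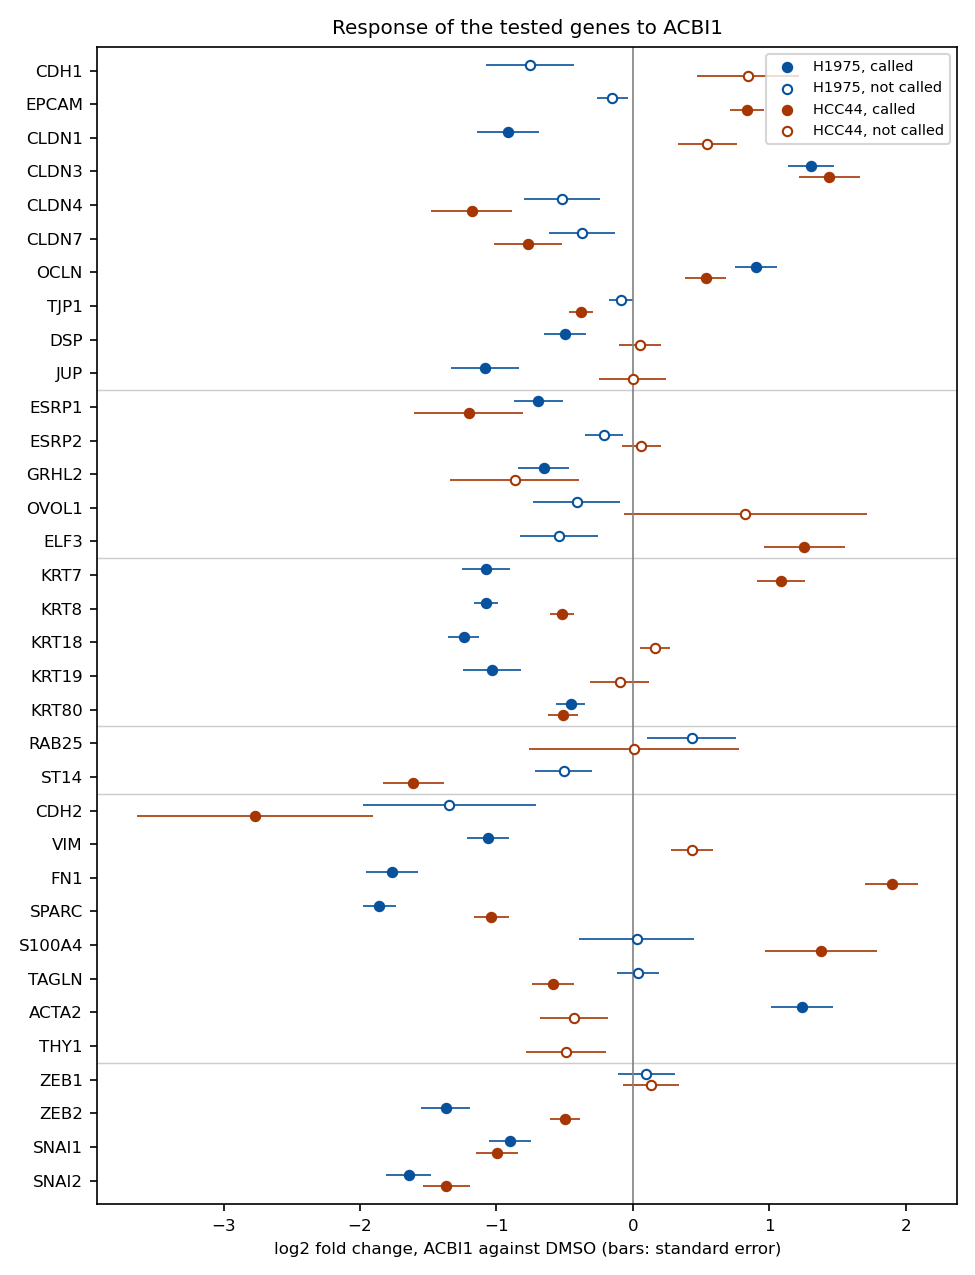
Log2 fold change of ACBI1 against DMSO in H1975 (blue) and HCC44 (brown) for the tested genes, with bars for the standard error and filled points for called genes. SPARC, ZEB2, SNAI1 and SNAI2 lie left of 0 and CLDN3 and OCLN right of it in both lines, while KRT7 and FN1 lie on opposite sides; THY1 in H1975 is left out because it had no counts with DMSO.

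Set side by side, 7 of the 34 tested genes fell in both lines (ESRP1, KRT8, KRT80, SPARC, ZEB2, SNAI1 and SNAI2) and 2 rose in both (CLDN3 and OCLN). Over all genes 7.08% fell in both and 5.83% rose in both. The calls of ESRP1 in both lines, KRT80 in H1975 and OCLN in HCC44 were lost in some alternative fits or with a library left out. KRT7 and FN1 fell in H1975 and rose in HCC44, as did 1.34% of all genes. CDH1, ESRP2, OVOL1, RAB25, THY1 and ZEB1 were called in neither line. The lines share no control library.

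The last comparison tested whether the responses themselves differed, as the HCC44 log2 fold change minus that of H1975. The difference was called for 12 of the 34 genes, more positive in HCC44 for 10 and more negative for 2, against 10.2% and 8.4% of all genes. FN1 had the largest, at 3.66 ± 0.27 (SE, adjusted p = 0.00012). KRT7 differed by 2.16 ± 0.25 (SE, adjusted p = 0.000757) and VIM by 1.496 ± 0.22 (SE, adjusted p = 0.00183). KRT18 differed by 1.40 ± 0.16 (SE, adjusted p = 0.000345) and EPCAM by 0.99 ± 0.17 (SE, adjusted p = 0.00323). ACTA2 was the called gene with the largest negative difference, -1.67 ± 0.34 (SE, adjusted p = 0.00717). SPARC fell in both lines, yet by less in HCC44, with a difference of 0.82 ± 0.18 (SE, adjusted p = 0.00926). These 7 were called under every alternative and with each library left out, unlike the 5 that follow.

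CLDN1 (1.46 ± 0.31 SE, adjusted p = 0.0167) was not called without H1975 DMSO replicate 1 (1.34, 0.0854) or H1975 DMSO replicate 2 (1.53, 0.0508). ELF3 (1.80 ± 0.41 SE, adjusted p = 0.0171) was not without HCC44 DMSO replicate 2 (1.68, 0.0592). KRT8 (0.56 ± 0.12 SE, adjusted p = 0.0106) was not without H1975 ACBI1 replicate 2 (0.52, 0.0668) or HCC44 DMSO replicate 2 (0.49, 0.0548). ZEB2 (0.87 ± 0.21 SE, adjusted p = 0.0157) was not without H1975 DMSO replicate 1 (0.83, 0.0598), H1975 ACBI1 replicate 1 (0.87, 0.0673), H1975 ACBI1 replicate 2 (0.82, 0.0883) or HCC44 DMSO replicate 1 (0.86, 0.0529). The response of ST14 was more negative in HCC44 (-1.10 ± 0.30 SE, adjusted p = 0.0356), and its difference was not called without H1975 DMSO replicate 2 (-0.99, 0.0912), HCC44 DMSO replicate 1 (-0.88, 0.103), HCC44 ACBI1 replicate 1 (-1.22, 0.0639) or HCC44 ACBI1 replicate 2 (-0.99, 0.13). CDH1 moved in opposite directions by its values, and the difference missed the threshold (1.60 ± 0.49 SE, adjusted p = 0.066), though it passed it with DESeq2 (1.56, 0.0466), the filter of 1 CPM in 2 libraries (1.59, 0.0413) and without HCC44 ACBI1 replicate 1 (2.04, 0.0105). Other genes not called with all libraries passed it in some fits. These were JUP with DESeq2 (1.04, 0.00374), without H1975 ACBI1 replicate 1 (1.34, 0.0351) or without HCC44 ACBI1 replicate 1 (1.38, 0.0131), and KRT19 with DESeq2 (0.90, 0.00807), without the filter (0.95, 1.24e-05) or without HCC44 ACBI1 replicate 1 (1.27, 0.000668). TAGLN did so with DESeq2 (-0.66, 0.0294), library totals (-0.74, 0.0379) or without HCC44 ACBI1 replicate 1 (-0.74, 0.0481), and TJP1 with library totals (-0.41, 0.0413). DSP did so without the filter (0.56, 0.0017) or HCC44 DMSO replicate 1 (0.80, 0.029), S100A4 without the filter (1.36, 0.0155) or HCC44 ACBI1 replicate 1 (1.86, 0.0188), and OCLN without H1975 ACBI1 replicate 2 (-0.63, 0.0403). The values for SNAI1 (-0.10 ± 0.21), SNAI2 (0.28 ± 0.24), CLDN3 (0.13 ± 0.28) and ZEB1 (0.03 ± 0.30) were not called, which does not show that the lines responded alike.

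Levels of the keratins were set against each other per kilobase of exon. In H1975 DMSO the level of KRT7 was 746.2 ± 24 CPM per kb (SD, n = 2), that of KRT18 207.5 ± 1.4, that of KRT19 140.6 ± 13.4, that of KRT8 119.1 ± 1.27 and that of KRT80 73.1 ± 12. In this order no 2 neighbours had overlapping libraries, but the order depends on the lengths used. These join all annotated exons of a gene, 6881 bases for KRT8 and 2336 for KRT19. The lengths of the transcripts present in the cells were not measured. By CPM alone KRT8, at 814 and 826 in H1975 DMSO, lay above KRT18 and KRT19. With ACBI1 KRT7 was at 354.3 ± 53.2 CPM per kb in H1975 and at 228.7 ± 64.1 in HCC44, against 107.7 ± 6.26 in HCC44 DMSO. KRT7 thus was at a more similar level in the lines under ACBI1 than under DMSO. In HCC44 DMSO KRT18 followed at 76.9 ± 6.08 CPM per kb, KRT80 at 36.2 ± 0.968, KRT8 at 31.5 ± 2.36 and KRT19 at 17.2 ± 0.196. This order depends on the same lengths.

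**Figure D4:**
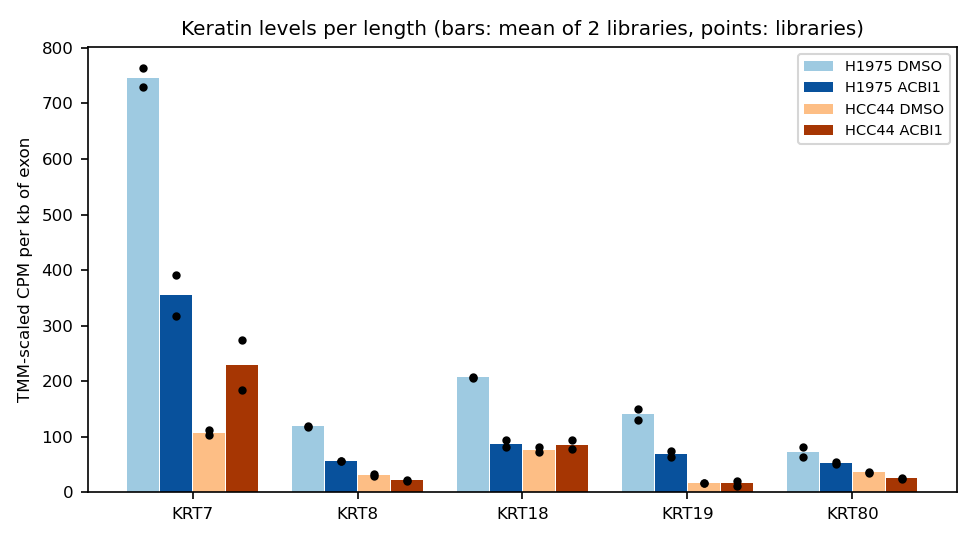
TMM-scaled CPM per kilobase of exon for the 5 keratins, with bars for the mean of 2 libraries, points for the libraries and a vertical axis from 0. KRT7 is at 746.2 CPM per kb in H1975 DMSO and 354.3 with ACBI1, and goes the other way in HCC44, from 107.7 to 228.7.

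Other genes of the same kinds were taken from lists that do not overlap the 36, also chosen with earlier results known. Over all genes tested, 14.6% were called higher and 16.7% lower in H1975, and 17.5% and 17.4% in HCC44. Of 29 tested further mesenchymal genes 16 fell in H1975 and 13 were not called, with a median of -0.84, while in HCC44 7 rose and 8 fell, with a median of 0.03. TGFBI, a secreted matrix protein, went from 1802 and 1723 to 389.1 and 348.9 CPM in H1975 (-2.26 ± 0.29, adjusted p = 0.00143). LOX, which crosslinks collagen, went from 20.9 and 29 to 2.96 and 6.51 CPM in HCC44 (-2.40 ± 0.36, adjusted p = 0.00177). BGN, a matrix proteoglycan, rose in HCC44 (1.65 ± 0.43, adjusted p = 0.0134). Of 29 tested further junction genes 1 rose and 7 fell in H1975 (median -0.28), against 5 and 8 in HCC44 (median 0.03). The largest changes in H1975 were in CTNNB1, which encodes beta-catenin (-0.95 ± 0.09, adjusted p = 4.32e-05), and in the desmosomal gene PPL (0.82 ± 0.13, adjusted p = 0.00108). In HCC44 they were in the tight junction genes MARVELD2 (-0.73 ± 0.11, adjusted p = 0.000622) and CGN (1.51 ± 0.22, adjusted p = 0.000552).

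Of 23 tested further epithelial program genes 1 rose and 9 fell in H1975 (median -0.54), and 3 rose and 8 fell in HCC44 (median -0.33). The shares of all genes called are those given for the mesenchymal and junction lists. S100A14 went from 18.6 and 15.3 to 1.90 and 1.44 CPM in H1975 (-3.34 ± 0.23, adjusted p = 9e-06). SPINT1, the inhibitor of the protease encoded by ST14, went from 54 and 53 to 8.79 and 8.84 CPM in HCC44 (-2.60 ± 0.20, adjusted p = 2.64e-05). ST14 and its inhibitor gene thus both fell in that line. MUC1, an epithelial mucin, rose there (2.19 ± 0.25, adjusted p = 0.000189). Of 14 further keratins 6 passed the filter, of which 1 rose and 4 fell in H1975 and 1 rose and 3 fell in HCC44. KRT15 rose in H1975 from 9.10 and 6.21 to 31.9 and 24.6 CPM (1.88 ± 0.20, adjusted p = 0.000104), and KRT17 fell in HCC44 from 167.2 and 118.4 to 34.1 and 21.4 CPM (-2.37 ± 0.28, adjusted p = 0.000508). KRT81 fell in H1975 (-2.16 ± 0.13, adjusted p = 3.97e-06) and rose in HCC44 (1.45 ± 0.12, adjusted p = 1.39e-05), but its near-identical copy KRT86 makes its counts uncertain.

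Annotated exons of CDH1, CLDN7, ESRP2, GRHL2, OVOL1, ELF3, KRT7, KRT8, KRT18, CDH2, VIM, SPARC, TAGLN, ACTA2, THY1, ZEB1, ZEB2 and TWIST1 overlap those of another gene, mostly on the opposite strand. The strand setting of the counting is not given in the sources used here, so reads in those stretches are uncertain, and their part in the results was not tested. The overlap covered 1260 of 5158 exonic bases of VIM and 896 of 2976 of ACTA2.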

How the data were processed

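RNA was measured in 8 libraries, 2 for each of the 4 groups of H1975 and HCC44 cells. The deposited values are read counts per gene, 1 table per library, which the authors left unnormalized. TopHat2 2.1.1, HTSeq 0.11.0 and the genome build hg38 are named per the submitters' processing notes, while the annotation and the strand setting are not given in the sources used here. The 5 summary rows of each table held 14.3 to 15.8% of its total and were left out.

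Counts were analysed with edgeR 4.0.16 (R 4.3.3). The function filterByExpr kept 21307 of 61228 genes, and library sizes were scaled by TMM factors. The model had 1 mean for each group over the 8 libraries, which left 4 residual degrees of freedom, and the common biological coefficient of variation was 0.123. Two-sided quasi-likelihood F-tests with robust dispersion were adjusted by Benjamini-Hochberg over all genes tested, and a standard error is the size of the log2 fold change over the root of F. The procedure was also run on simulated counts in which few genes were changed in 1 group, unlike the many genes called here. Its outcome is not given, and no result rests on it. Ratios with fewer than 10 counts in a group have exact 95% intervals, and these and the floor of 3 counts cover counting error only.

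All 36 genes are accounted for, and values in every library are given for genes called with a log2 fold change of at least 1 in either line, or with a line difference of at least 3. From other lists, the called gene with the largest rise and fall per line was named if a group mean reached 5 CPM and libraries did not overlap. The members and lists were chosen with earlier results of these data known. Exon lengths, overlaps and 3′ UTRs are from GENCODE 29 (3′ UTRs of similar length are 0.8 to 1.25 times as long), and microRNA and promoter sequences from RefSeq (GRCh38.p14). The alternatives were a block for the replicate number, DESeq2 1.42.0, no filter or one of 1 CPM in 2 libraries, library totals or RLE size factors, separate fits of the lines, a threshold of 0.01, each library left out, and for the promoter motif a window of 300 bases. Figures were drawn with matplotlib 3.10.9.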

Additional observations from a re-analysis of the deposited data

Results flagged for a closer look

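The difference between the ACBI1 responses of the lines, HCC44 minus H1975, passed the test of the difference itself for 12 of the 34 genes tested (edgeR, adjusted over all genes). It was more positive in HCC44 for the adhesion gene EPCAM (0.9878), the tight junction gene CLDN1 (1.461), the epithelial factor ELF3 (1.799) and the keratins KRT7 (2.161), KRT8 (0.5582) and KRT18 (1.4). It was also more positive for VIM (1.496), FN1 (3.663), SPARC (0.8213) and ZEB2 (0.8747) of the mesenchymal genes. It was more negative for ST14 (-1.102) and ACTA2 (-1.668). KRT7 and FN1 were called in opposite directions in the lines. KRT8, SPARC and ZEB2 fell in both lines, by less in HCC44. Over all genes tested, the difference was called more positive in HCC44 for 10.2% and more negative for 8.4%. Those of CLDN1, ELF3, KRT8, ZEB2 and ST14 were not called in some fits with a library left out.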

How the results depend on the processing

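Of the 30 calls between the lines under DMSO, 29 were kept in all alternatives run and with each library left out. RAB25 was removed by the filter of 1 CPM in 2 libraries and kept its call elsewhere. With the replicate number as a block, none of 24 counts of calls moved by over 1.5 times. This block was shared by the lines. It could not take up a replicate difference that was particular to either line, so pairing within a line was not tested. The block ended the call of CLDN7 in HCC44 (-0.7622) and added ST14 in H1975 (-0.5222) and VIM in HCC44 (0.4277). Deviations from the group mean correlated between libraries of the same number at 0.374 (H1975) and 0.109 (HCC44). No batch or day is tied to the numbers in the labels, so they are not taken as pairs.

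Library totals shifted the median gene by 0.203 in H1975, 0.091 in HCC44, -0.116 between the lines and -0.112 in the difference of responses. Calls were then 5427 higher and 2080 lower in H1975 (72.3% higher against 46.6%), 60.5% higher against 50% in HCC44 and 40.5% against 54.9% in the difference of responses. Epithelial falls in H1975 became 6, and more negative differences 2 epithelial and 2 mesenchymal genes. DESeq2 also gave 2 such mesenchymal genes, and HCC44 fitted alone gave 1 mesenchymal rise. At an adjusted p under 0.01, H1975 had 1641 genes higher and 2050 lower with 5 epithelial falls. HCC44 had 2273 and 2408, with 3 epithelial rises, 4 epithelial falls and 1 mesenchymal rise. The differences of responses then numbered 910 and 744, with 3 epithelial genes more positive and 0 more negative by edgeR (2 at an unadjusted p under 0.05).

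With 1 library left out, H1975 had 1786 to 3290 genes called higher, 1904 to 3871 lower and 4 to 11 epithelial falls. HCC44 had 2413 to 3681 genes higher, 3 to 6 epithelial rises, 4 to 7 epithelial falls and 1 to 3 mesenchymal rises. The differences numbered 1306 to 2328 more positive and 1035 to 1806 more negative, with 0 to 2 epithelial and 1 to 2 mesenchymal genes more negative.

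Signs changed in no value that was called with all libraries. Between the lines, TJP1 was -0.1078 with library totals, -0.0063 without the filter, -0.0053 with 1 CPM in 2 libraries and -0.0654 to 0.1282 with 1 library left out. S100A4 was -0.0589 with library totals and -0.3569 to 0.3834 with 1 left out, and JUP -0.184 to 0.0564. In H1975, library totals gave 0.0544 for EPCAM and 0.1201 for TJP1. With 1 library left out, EPCAM was -0.2813 to 0.0242, TJP1 -0.1544 to 0.0348, S100A4 -0.1351 to 0.2307 and ZEB1 -0.2221 to 0.4084. In HCC44, JUP was -0.0024 with DESeq2 and with RLE factors. With 1 left out, DSP was -0.1636 to 0.3029, JUP -0.374 to 0.3021, ESRP2 -0.1738 to 0.2691, OVOL1 -0.2859 to 2.0457, KRT19 -0.5236 to 0.2371, RAB25 -0.3891 to 0.5581 and ZEB1 -0.032 to 0.2871. For the difference of responses, ZEB1 was -0.0767 with library totals. With 1 left out, CLDN3 was -0.0999 to 0.4082, GRHL2 -0.6694 to 0.4598, KRT80 -0.2866 to 0.1067, RAB25 -0.8181 to 0.1294, CDH2 -2.1647 to 0.1205, ZEB1 -0.2755 to 0.3552 and SNAI1 -0.32 to 0.1712. The cause of these changes was not tested. A group reduced to 1 library is assumed to vary like the others. Depth limits OVOL1, RAB25, CDH2 and ESRP1 in HCC44 and THY1 in H1975, which had few or no counts there.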
